A study of Vitis rotundifolia with 18 samples.

Results

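Stilbene synthases are plant enzymes that join p-coumaroyl-CoA with malonyl-CoA to make resveratrol, the parent of the grapevine stilbenes. They draw on the same substrates as chalcone synthase, the entry enzyme of the flavonoids. In Vitis vinifera their genes form tandem clusters on chromosomes 10 and 16, and MYB14 and MYB15 are R2R3-MYB transcription factors that activate stilbene synthase promoters there. Stilbenes act as phytoalexins in that species and accumulate in the skin of ripening berries.

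The genes described here are the stilbene synthase clusters with MYB14 and MYB15, in berries of the muscadine grape, Vitis rotundifolia. They were chosen by identifier. All identifiers from VIT_16s0100g00750 to VIT_16s0100g01200 gave 39 copies in the chromosome 16 cluster, and all from VIT_10s0042g00840 to VIT_10s0042g00930 gave 10 copies in the chromosome 10 cluster. With MYB14 (VIT_07s0005g03340) and MYB15 (VIT_05s0049g01020) this made 51 of 27228 identifiers. The names and the chromosome numbers come with that choice and with the identifiers themselves. The deposited tables give no gene names, so the names were not checked, which copies encode a working enzyme is not known here, and genes of neighbouring pathway steps were not analysed.

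RNA of berry samples was sequenced from 2 cultivars, Noble and Carlos. Stages are given on the E-L scale of grapevine growth, where E-L 32 is bunch closure, E-L 35 is veraison, when berries start to ripen, and E-L 38 is maturity. Each of the 6 groups, Noble at E-L 32, 35 and 38 and Carlos at E-L 32, 35 and 38, held 3 libraries. Totals lay between 18919160 and 30843026 expected counts per library. No treatment is named, and nothing states whether the berries of a library were pooled or whether replicates came from separate vines, so the p-values reflect the spread among these samples alone, and that spread may be technical.

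The libraries of E-L 38 went against their cultivar labels. Of 1039 genes called the same way between Noble and Carlos at both E-L 32 and E-L 35, 732 were also called between the labels at E-L 38, and 721 of these (98.5%) ran the opposite way while 11 ran the same way. The only gene described here among the 1039 was MYB15. Libraries of E-L 38 are therefore named "labelled Noble" and "labelled Carlos", and the step to E-L 38 is given first as the mean over both labels, which does not depend on which name a library carries. A difference between labels at E-L 38 and an exchange of labels cannot be told apart here. Noble E-L 32 replicate 1, Noble E-L 35 replicate 2 and Carlos E-L 35 replicate 3 stood apart from the other replicates of their groups over all genes. The chi-square of counts per degree of freedom was 22.02 and 25.2 for the first of them against the other replicates, 148 and 146 for the second and 653 and 614 for the third, against 2.97, 15.8 and 2.95 between the other replicates of those groups. At E-L 38, replicate 3 of each label also differed from its group. The chi-square was 90.5 and 82 for the one labelled Carlos, against 12.0 between its other replicates. For the one labelled Noble it was 37.2 and 42.6, against 8.73. These were left out singly, and the 3 libraries that stood apart always means the 3 named first. Many results that move without those 3 are given with and without them.

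Most copies of the chromosome 16 cluster were detected, and divided reads touched each of those in at least 1 library. A count was found in at least 1 library for 33 of 39 copies on chromosome 16 and for 8 of 10 on chromosome 10, while 6 and 2 copies stood at 0 in every library. Of the 6 on chromosome 16, 3 are models of 108 to 168 bases with an effective length of 0 to 1.02 bases. A count could hardly fall on those 3, so their zeros say little about their level. The program behind the counts divides a read that matches several genes among them, which leaves a count that is not a whole number. All 33 detected copies on chromosome 16 had such a count (farther than 0.005 from a whole number) in at least 1 library, and 28 of them in 9 or more libraries. On chromosome 10, 6 of the 8 detected copies had one. MYB14 and MYB15 had whole counts in all 18 libraries.

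Over all identifiers 2667 of 27228 (9.80%) held such a count in some library, or 12.7% of the 20950 with any count. Of 36 identifiers that flank the clusters on either side, 2 did. In a single library 69.1% to 98.9% of the summed count of the chromosome 16 cluster sat in copies whose count was not whole, against 6.37% to 22.6% of the count over all identifiers. The 22.6% was that of Carlos E-L 35 replicate 3, which stood apart, and all other libraries had at most 10.65%. The level of a single copy therefore rests on how reads were divided among similar copies. A summed count does not depend on a division within its cluster, whereas summed TPM does, since each count is divided by the effective length of its copy. Of the copies named below, VIT_16s0100g01100 and VIT_10s0042g00840 had counts in all 18 libraries, and these were not whole in 4 and 3 of them.

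**Figure D1:**
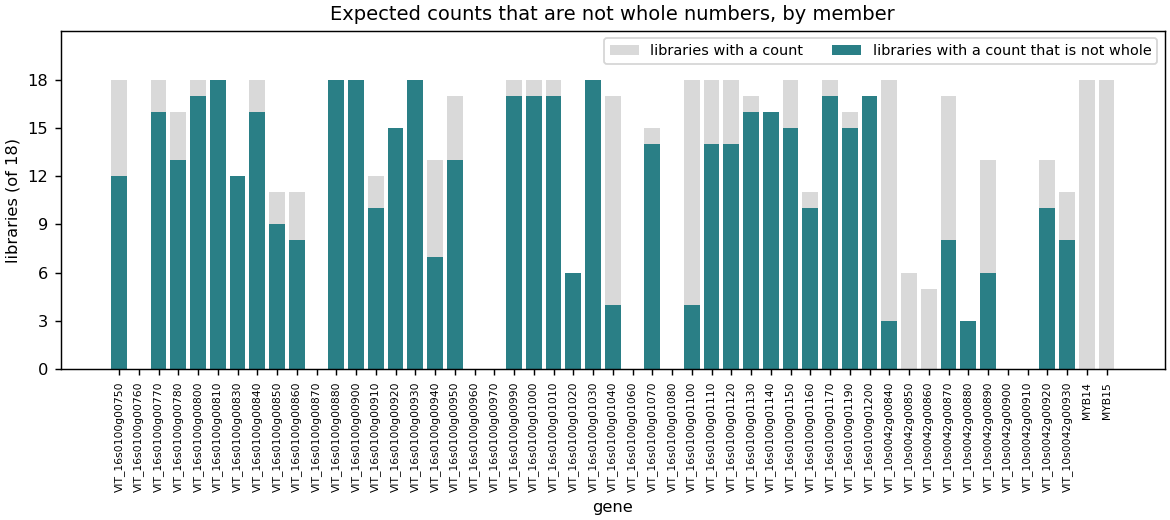
Bars give, for each of the 51 genes, the number of the 18 libraries with a count (grey) and with an expected count that is not a whole number (teal). Genes are in identifier order within the chromosome 16 and then the chromosome 10 cluster, with MYB14 and MYB15 last. Teal fills most of the grey bar for most copies on chromosome 16. It is short for VIT_16s0100g01040, VIT_16s0100g01100 and VIT_10s0042g00840 among others, and is missing for MYB14 and MYB15.

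A filter on low counts left 32 of the 51 genes for testing, namely 27 copies on chromosome 16, 3 on chromosome 10 and both MYB genes, out of 17657 genes tested in all. The other 19 comprised the 8 at 0 in every library and 11 whose count stayed at or below 51.8 in any library. Tests were made with edgeR's quasi-likelihood test, with Benjamini-Hochberg adjustment across the 17657 genes. Counts over the tested copies leave the others out and are not counts over the clusters as a whole.

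MYB15, the activator named above, was low at bunch closure and had the highest log2 fold change of the 32 tested genes in the step to veraison averaged over cultivars. It stood at 25.25, 31.38 and 23.85 TPM in the Noble libraries of E-L 35, against 3.72, 0.71 and 0.60 TPM in those of E-L 32. In Carlos it stood at 5.69, 4.33 and 10.50 TPM at E-L 35, against 0.31, 0.26 and 0.05 TPM at E-L 32. TPM is the transcript level per length, scaled to a common total per library. In both cultivars every library of E-L 35 lay above every library of E-L 32. Averaged over cultivars MYB15 rose by 4.83 ± 0.46 on the log2 scale (SE, adjusted p = 4.0e-07), and by 5.54 without Noble E-L 32 replicate 1, the highest library of that stage. The rise was 4.35 ± 0.57 in Noble (adjusted p = 2.8e-05, 5.74 without that replicate and 5.61 without all 3 libraries that stood apart) and 5.31 ± 0.71 in Carlos (adjusted p = 2.4e-05). The difference between cultivars in this step, -0.96 ± 0.95, did not pass the test (adjusted p = 0.52). It turned positive, 0.40, without Noble E-L 32 replicate 1.

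At maturity MYB15 stood at 33.88, 38.39 and 22.24 TPM in libraries labelled Noble and at 36.25, 34.01 and 53.48 TPM in libraries labelled Carlos. Over both labels it rose further from veraison, by 1.53 ± 0.34 (adjusted p = 0.0033), and this call held in all 20 alternative settings. Libraries labelled Carlos lay well above the Carlos libraries of E-L 35, and the log2 fold change was 2.63 ± 0.50 (adjusted p = 9.9e-04). Libraries labelled Noble overlapped those of Noble E-L 35, with 0.42 ± 0.47 (adjusted p = 0.52). Across labels, those labelled Noble lay above all Carlos libraries of E-L 35, and those labelled Carlos above all Noble libraries of E-L 35. The overlap thus depends on the labels. As labelled, the late step differed by -2.21 ± 0.68 (Noble minus Carlos, adjusted p = 0.021). The call ended without E-L 38 replicate 3 labelled Noble (-1.97) or labelled Carlos (-1.91), with adjusted p between 1.3e-04 and 0.055 over all alternatives.

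Between cultivars MYB15 was higher in Noble at the first 2 stages. At E-L 32 the difference of Noble over Carlos was 2.77 ± 0.80 on the log2 scale (adjusted p = 0.018). It rested on Noble E-L 32 replicate 1, without which it was 1.41, and it also missed the threshold without Carlos E-L 32 replicate 3 (2.39) and with limma-voom (2.37), with adjusted p up to 0.19. At E-L 35 it was 1.80 ± 0.49 (adjusted p = 0.019), and the call ended without Carlos E-L 35 replicate 1 (1.67) or 2 (1.56) and with only the groups compared in the fit, with adjusted p up to 0.068. At E-L 38 the labelled groups overlapped, and the log2 fold change was -0.40 ± 0.47 (adjusted p = 0.59).

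MYB14, the other activator, moved the opposite way at the first step, and in Noble. Its level was 1.59, 1.07 and 1.61 TPM in Noble at E-L 35, against 5.53, 4.48 and 4.16 TPM at E-L 32, with no overlap. It fell by 1.39 ± 0.35 on the log2 scale (adjusted p = 0.0038), in all 14 alternative settings. In Carlos it stood at 1.22, 1.95 and 2.20 TPM at E-L 35, against 1.15, 2.03 and 1.94 TPM at E-L 32. Those groups overlapped, and the log2 fold change was 0.44 ± 0.35 (adjusted p = 0.30). The step differed between Noble and Carlos by -1.83 ± 0.49 (adjusted p = 0.019). The call ended without Carlos E-L 32 replicate 1 (-1.61) and without the 3 libraries that stood apart (-1.29), with adjusted p between 0.0031 and 0.092 over all alternatives.

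At bunch closure MYB14 was higher in every Noble library than in every Carlos library, by 1.35 ± 0.34 on the log2 scale (adjusted p = 0.0091). Without Carlos E-L 32 replicate 1, its lowest library of that group, the difference was 1.12 and just missed the threshold, with adjusted p up to 0.052. At maturity it stood at 1.03, 1.72 and 1.54 TPM in libraries labelled Noble and at 3.0, 1.94 and 1.36 TPM in libraries labelled Carlos. These groups overlapped. None of the tests of MYB14 that involve E-L 38 passed, the late step over both labels being 0.22 ± 0.25 (adjusted p = 0.50). Unadjusted p was under 0.05 in none of them, and none passed with DESeq2, limma-voom or any other alternative. In Noble the level of MYB14 was thus highest at the stage where MYB15 was lowest.

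**Figure D2:**
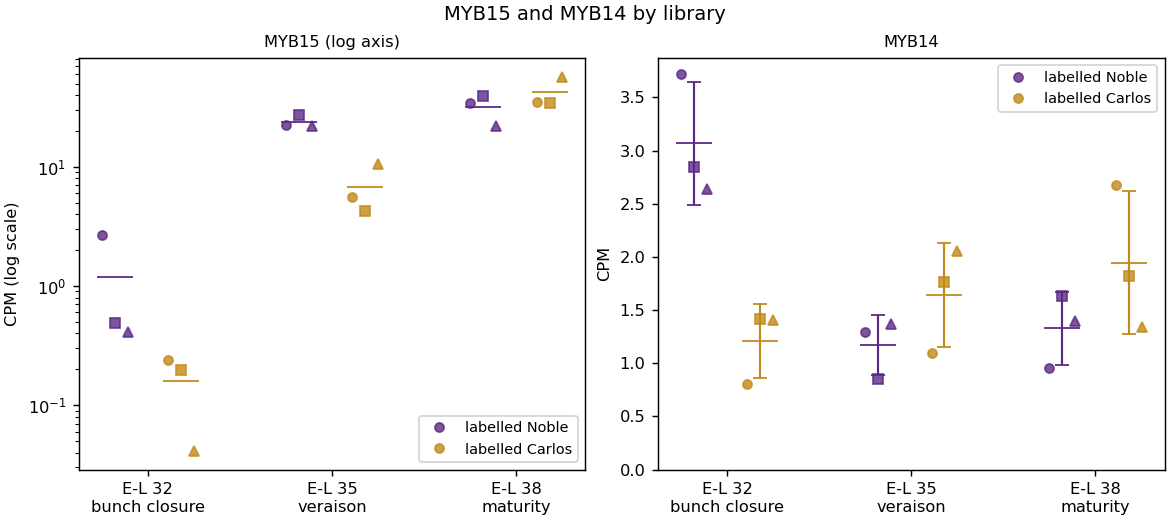
Points are single libraries (replicate 1 circle, 2 square, 3 triangle) in CPM (rounded counts scaled to a common total, with TMM factors), by stage, with libraries labelled Noble left of those labelled Carlos and long ticks at group means. The bars on the right panel are SDs (n = 3 each). MYB15, on a log axis, is higher at E-L 35 than at E-L 32 in both cultivars, and MYB14 is highest in the 3 Noble libraries of E-L 32.

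The summed level of the chromosome 16 cluster was higher at each later stage in both cultivars, as labelled. In Noble the 39 copies together held 19.37, 15.21 and 15.14 TPM at E-L 32, 49.09, 36.18 and 41.31 TPM at E-L 35, and, in libraries labelled Noble, 42.96, 64.06 and 53.63 TPM at E-L 38. In Carlos they held 21.90, 23.65 and 24.45 TPM at E-L 32, 34.15, 26.09 and 38.71 TPM at E-L 35, and, in libraries labelled Carlos, 69.00, 67.21 and 171.8 TPM at E-L 38. Libraries of E-L 35 lay above those of E-L 32 without overlap in both cultivars. At E-L 38 libraries labelled Noble overlapped those of Noble E-L 35, while libraries labelled Carlos lay above all Carlos libraries of E-L 35. Across labels, those labelled Noble (42.96 to 64.06 TPM) lay above all Carlos libraries of E-L 35 (26.09 to 38.71 TPM). Those labelled Carlos (67.21 to 171.8 TPM) lay above all Noble libraries of E-L 35 (36.18 to 49.09 TPM). The overlap seen in Noble thus depends on the labels. These are bulk samples, in which more cells that express a gene and more RNA per cell cannot be told apart.

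As ratios of group means, the sum at E-L 35 was 2.55 times that at E-L 32 in Noble, at 42.2 ± 6.50 against 16.6 ± 2.42 TPM (SD, n = 3 each). In Carlos it was 1.41 times as high, at 33.0 ± 6.39 against 23.3 ± 1.3 TPM. With CPM of the summed counts in place of TPM the ratios were 3.20 and 1.91. From E-L 35 to E-L 38 the ratio was 1.27 by the Noble label and 3.11 by the Carlos label, the last with a group of 102.7 ± 59.9 TPM. Sums were not tested.

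One library weighed on the last value. Among the 33 detected copies on chromosome 16, 29 had their highest level of all 18 libraries in E-L 38 replicate 3 labelled Carlos. Its CPM was at least 2 times the mean of replicates 1 and 2 for 22 of 27 tested copies (81.5%), with a median ratio of 2.36, against 4.61% of all genes and a median of 0.991. Without that library the ratio of E-L 38 to E-L 35 by the Carlos label was 2.07. Whether this library differs in berries or in handling was not tested.

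**Figure D3:**
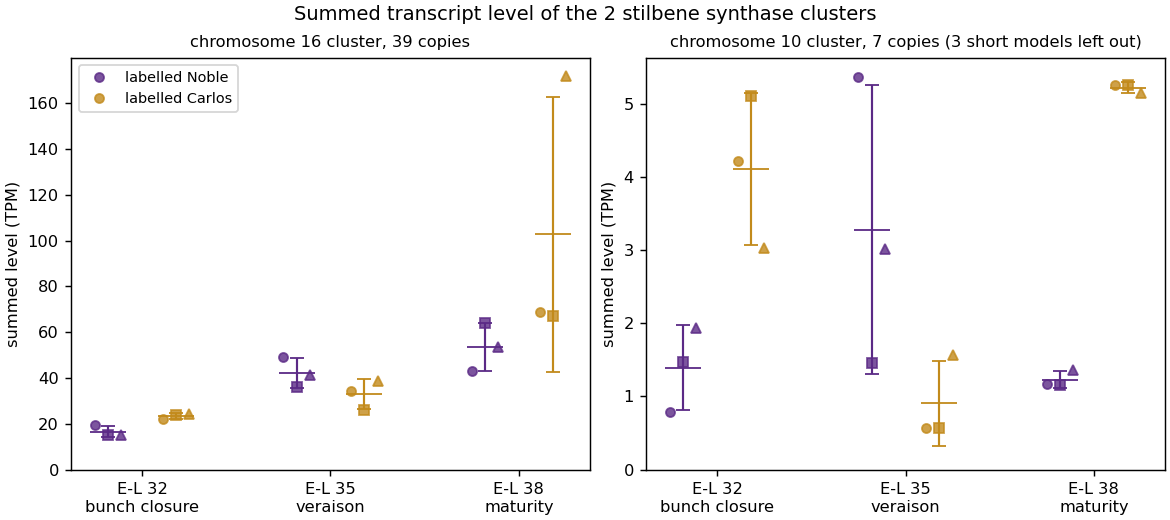
Points are single libraries (replicate 1 circle, 2 square, 3 triangle), with the group mean (long tick) and SD (bar, n = 3), of summed TPM by stage, libraries labelled Noble left of those labelled Carlos. The chromosome 16 sums lie between 15.1 and 24.5 TPM at E-L 32 and reach 171.8 TPM in 1 library at E-L 38, while the chromosome 10 sums, drawn without 3 very short gene models, stay under 6 TPM.

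The sum was spread over many copies, the highest share of a copy in any group being 23.5%. VIT_16s0100g00800 held the highest share at E-L 32, with 11.6% of the summed TPM in Noble and 22.2% in Carlos. At the later stages VIT_16s0100g00770 led, with 20.4% in Noble and 23.5% in Carlos at E-L 35, and 20.6% by the Noble label and 15.3% by the Carlos label at E-L 38. The 5 highest copies of a group together held 44.8% to 61.1%. Copies with a mean of at least 1 TPM numbered 6 in Noble and 9 in Carlos at E-L 32, 12 in each at E-L 35, and 14 by the Noble and 23 by the Carlos label at E-L 38.

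Single copies of chromosome 16 rose from bunch closure to veraison. Averaged over cultivars, 14 of 27 tested copies rose (51.9%), beside 30.6% of all 17657 genes tested. Because reads were divided among similar copies, the 27 are not independent units, here or in the counts and medians below. None of the 27 fell by edgeR, also at an unadjusted p under 0.05, and none did by DESeq2 or limma-voom, beside 32.1% of all genes called lower by edgeR. The median log2 fold change was 1.64 over the 27 copies and -0.0018 over all genes. With MYB15, 15 of the 32 tested genes were called. No copy of chromosome 10 was called in either direction by edgeR or DESeq2, also at an unadjusted p under 0.05, while limma-voom called 1 lower.

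VIT_16s0100g00770, the copy with the highest level, had 7.82, 11.37 and 6.63 TPM in Noble at E-L 35, against 2.08, 1.16 and 0.53 TPM at E-L 32. In Carlos it had 11.24, 6.62 and 5.43 TPM at E-L 35, against 0.99, 1.06 and 1.12 TPM at E-L 32. No libraries overlapped, and its averaged log2 fold change was 3.18 ± 0.35 (adjusted p = 1.6e-06). VIT_16s0100g00750 had 2.68, 1.25 and 1.99 TPM in Noble at E-L 35, against 0.42, 0.11 and 0.30 TPM at E-L 32. In Carlos it had 3.84, 3.18 and 2.42 TPM at E-L 35, against 0.37, 0.18 and 0.23 TPM at E-L 32. Its averaged log2 fold change was 3.53 ± 0.46 (adjusted p = 9.7e-06). Both calls held in all 20 alternative settings and in each cultivar.

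At the low end of the called copies, VIT_16s0100g01010 rose by 1.3 ± 0.34 (adjusted p = 0.0040) and VIT_16s0100g01100 by 1.66 ± 0.41 (adjusted p = 0.0024), in all 20 alternatives. VIT_16s0100g01030 rose by 1.79 ± 0.32 (adjusted p = 2.0e-04) and VIT_16s0100g01120 by 1.91 ± 0.34 (adjusted p = 1.7e-04), also in all 20. VIT_16s0100g00800 and VIT_16s0100g00900, the copies next to VIT_16s0100g00770 in mean level, were not called. In VIT_16s0100g00900 the libraries of E-L 35 had 2.65, 0.77 and 2.40 TPM in Noble and 0.79, 0.51 and 2.17 TPM in Carlos. Those of E-L 32 had 1.59, 1.33 and 1.18 TPM in Noble and 3.51, 3.21 and 4.11 TPM in Carlos.

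Within cultivars, 14 of 27 copies of chromosome 16 and 1 of 3 of chromosome 10 rose in Noble, where MYB15 rose and MYB14 fell, beside 23.7% of all genes called higher and 26.4% called lower. These 17 calls among 32 were 9 without Noble E-L 32 replicate 2, 10 without Noble E-L 32 replicate 3, 11 without Noble E-L 35 replicate 1, and 11 with only those groups in the fit. In Carlos 9 of 27 copies of chromosome 16 and MYB15 rose and 2 of 3 copies of chromosome 10 fell (VIT_10s0042g00870 and VIT_10s0042g00920, named after their values were seen), beside 26.1% of all genes called higher and 27.4% called lower. The copy of chromosome 10 called higher in Noble was VIT_10s0042g00840, with 4.76, 0.91 and 2.29 TPM at E-L 35, against 0.55, 1.19 and 1.53 TPM at E-L 32. These groups overlapped, and its log2 fold change of 1.56 (adjusted p = 0.039) was called in 5 of 14 alternatives, being 0.89 without Noble E-L 35 replicate 1, with adjusted p up to 0.25. Across alternatives the call of VIT_10s0042g00870 in Carlos held in 7 of 13 and that of VIT_10s0042g00920 in 6 of 14, with log2 fold changes of -2.51 to -1.68 and of -7.21 to -2.17 and adjusted p up to 0.12 and 0.13. VIT_10s0042g00920 had 0.48, 1.10 and 0.66 CPM in Carlos at E-L 32 and at most 0.34 CPM in any other library. It passed the filter on low counts through that group, so its call as lower afterwards is not independent of the filter. All 27 copies of chromosome 16 had a log2 fold change above 0 in Noble, with a median of 1.66, and 17 did in Carlos, with a median of 0.75. The copies that rose in both cultivars numbered 6, which are VIT_16s0100g00750, VIT_16s0100g00770, VIT_16s0100g01110, VIT_16s0100g01120, VIT_16s0100g01170 and VIT_16s0100g01200, beside 15.0% of all genes called higher in both cultivars. The model of VIT_16s0100g01110 is 15767 bases long, against 1509 for VIT_16s0100g00770, so it adds little to summed TPM. Its mean in libraries labelled Carlos at E-L 38 was 5.32 CPM but 0.31 TPM.

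The test of the difference between the cultivars' early steps called 5 genes higher and 1 lower among 32, beside 8.69% and 8.91% of all genes. VIT_16s0100g00800 had 5.88, 2.67 and 5.16 TPM in Noble at E-L 35, against 2.74, 1.21 and 1.82 TPM at E-L 32, and in Carlos 1.68, 0.83 and 4.60 TPM at E-L 35, against 4.39, 5.56 and 5.56 TPM at E-L 32. Its steps differed by 2.34 ± 0.76 (Noble minus Carlos, adjusted p = 0.047). The steps of VIT_16s0100g01030 differed by 2.09 ± 0.64 (adjusted p = 0.036). Both calls were weak. That of VIT_16s0100g00800 held in 8 and that of VIT_16s0100g01030 in 10 of 20 alternatives, with differences between 1.93 and 3.91 and between 1.68 and 2.92 and adjusted p up to 0.11 and 0.088. The count of 6 lay between 0 (without Carlos E-L 32 replicate 1) and 9 when 1 library was left out. It was 1 without Noble E-L 32 replicate 2 or Noble E-L 35 replicate 1, 2 without Carlos E-L 32 replicate 2, and 3 without Noble E-L 32 replicate 1 or 3, Carlos E-L 32 replicate 3, Noble E-L 35 replicate 3 or Carlos E-L 35 replicate 1 or 2.

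**Figure D4:**
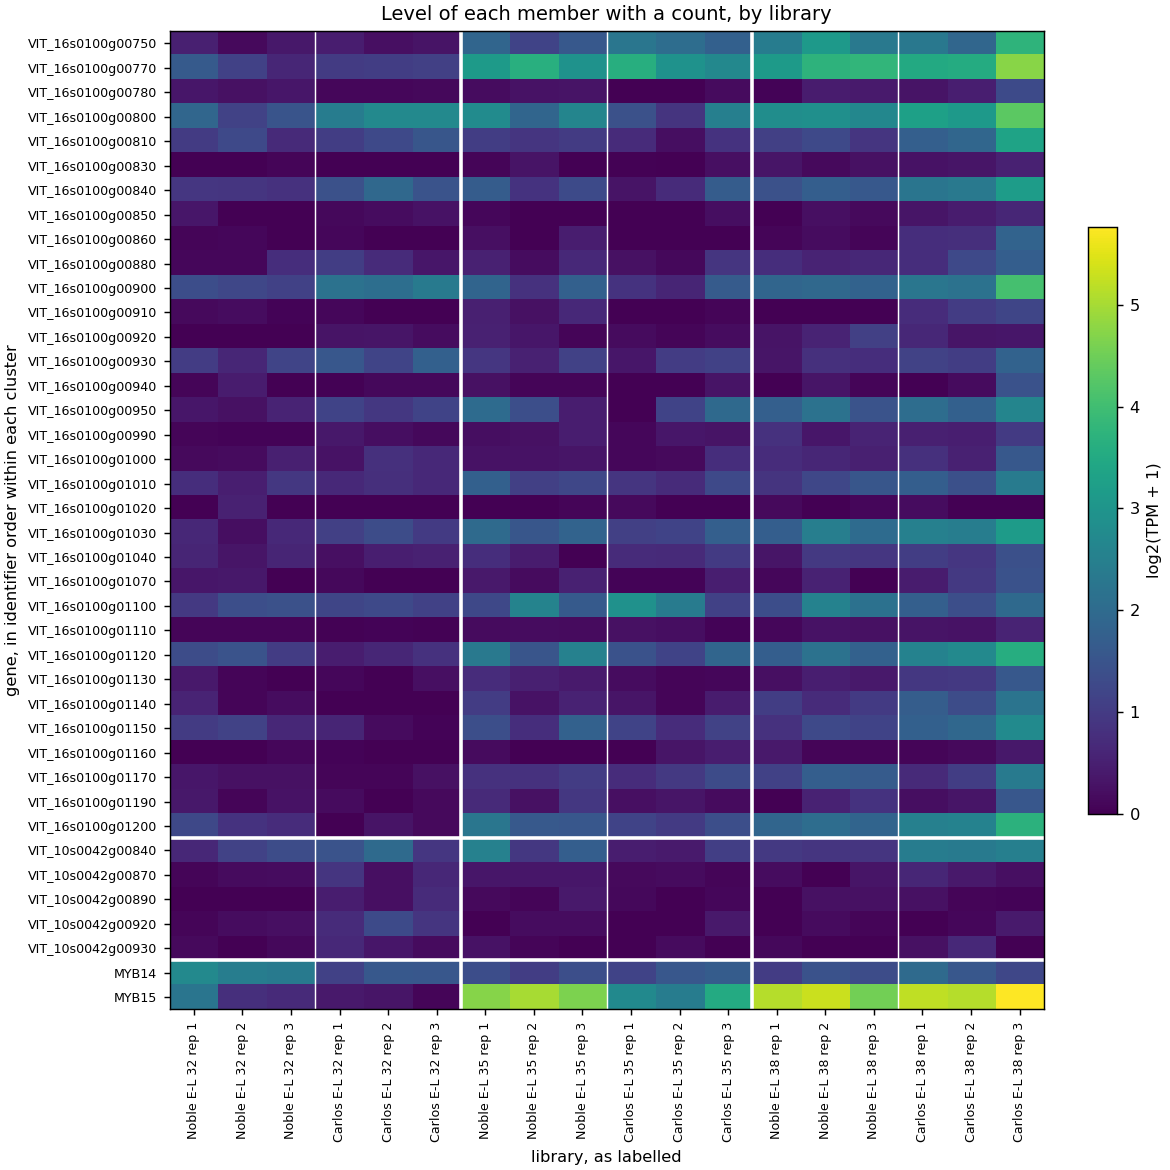
Each row is a gene with a count in some library (3 very short gene models of chromosome 10 left out) and each column a library in stage order, Noble left of Carlos within a stage, coloured by log2(TPM + 1). MYB15, the bottom row, and VIT_16s0100g00770, the second row, are brightest at E-L 35 and E-L 38, and the last column, E-L 38 replicate 3 labelled Carlos, is bright for most copies.

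The step from veraison to maturity again went upward. Over both labels 16 of 27 tested copies of chromosome 16 rose (59.3%), beside 16.9% of all genes tested, with a median of 1.25 over the copies and -0.030 over all genes. None of the 27 fell by edgeR, also at an unadjusted p under 0.05, or by DESeq2 or limma-voom, beside 21.2% of all genes called lower by edgeR. With MYB15 this made 17 calls among 32. The count was 11 without E-L 38 replicate 2 labelled Noble and 11 without E-L 38 replicate 3 labelled Carlos. In both averaged steps 9 copies and MYB15 were called higher, beside 6.21% of all genes. The steps share the libraries of E-L 35.

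Several copies that had not been called at the first step were called here. VIT_16s0100g00800 had 6.15, 6.30 and 5.40 TPM in libraries labelled Noble and 8.76, 7.63 and 18.94 TPM in libraries labelled Carlos at E-L 38, of which 5.40 TPM alone lay below a library of E-L 35 (5.88 TPM). It rose by 1.47 ± 0.37 (adjusted p = 0.0067). VIT_16s0100g00900 had 2.7, 2.84 and 2.53 TPM by the Noble label and 3.78, 3.51 and 15.80 TPM by the Carlos label, with 1 library of E-L 35 (2.65 TPM) reaching into that range, and rose by 1.73 ± 0.44 (adjusted p = 0.0068). Both calls held in all 20 alternatives, as did those of VIT_16s0100g00750 (1.36 ± 0.37, adjusted p = 0.0097), VIT_16s0100g01030 (1.25 ± 0.29, adjusted p = 0.0042) and VIT_16s0100g01140 (2.15 ± 0.52, adjusted p = 0.0064).

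VIT_16s0100g00770 had 7.88, 12.28 and 12.90 TPM in libraries labelled Noble and 10.35, 10.79 and 25.92 TPM in libraries labelled Carlos. These overlapped the libraries of E-L 35, and its log2 fold change of 0.81 ± 0.30 (adjusted p = 0.045) held in 9 of 20 alternatives. It was 0.50 without E-L 38 replicate 3 labelled Carlos, and between 0.71 and 0.77 without any one of E-L 38 replicates 2 and 3 labelled Noble, Noble E-L 35 replicates 1 and 3, and Carlos E-L 35 replicates 2 and 3, with adjusted p up to 0.17 over all alternatives. VIT_16s0100g01120 rose by 0.88 ± 0.31 (adjusted p = 0.034). Its call ended without E-L 38 replicate 3 labelled Carlos (0.62), E-L 38 replicate 2 labelled Noble (0.76), Noble E-L 35 replicate 2 (0.72), Carlos E-L 35 replicate 1 (0.85) or 2 (0.77), and with only the groups compared in the fit (0.88), with adjusted p up to 0.11.

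**Figure D5:**
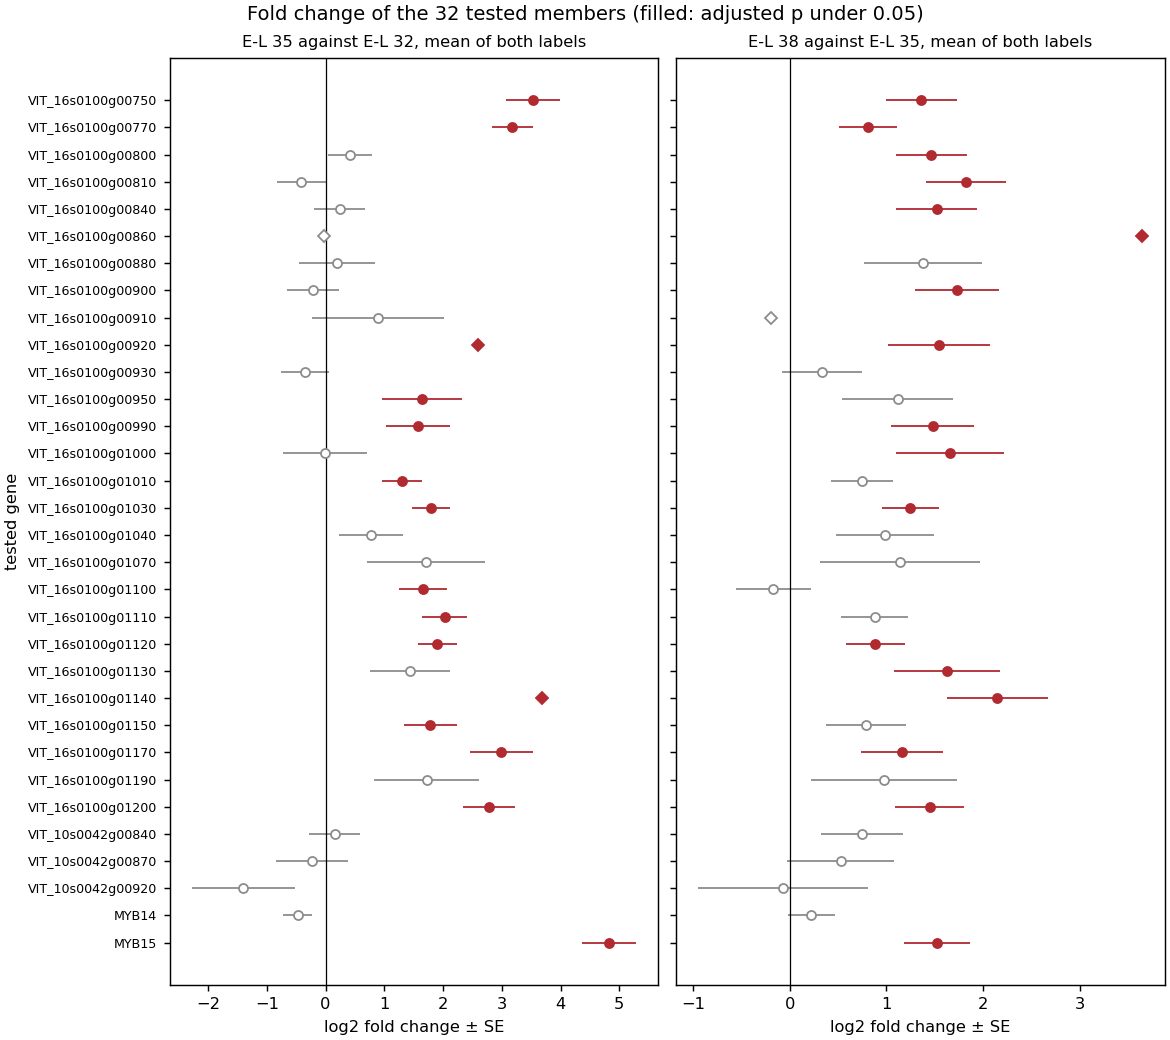
Points are log2 fold changes of the 32 tested genes with SE bars, E-L 35 against E-L 32 on the left and E-L 38 against E-L 35 on the right, averaged over both labels, filled where the adjusted p is under 0.05. Diamonds mark genes with a group at 0 counts, whose fitted value depends on the prior count and carries no bar. All filled points lie right of 0, with MYB15 farthest right on the left panel at 4.83.

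By label, most calls of the late step were in the libraries labelled Carlos, and this contrast depends on the labels. Across labels, the chromosome 16 sums and MYB15 of both labels lay above all libraries of the other cultivar at E-L 35. No stage step was tested across labels. Against Carlos E-L 35, 14 of 27 copies of chromosome 16, 1 of 3 of chromosome 10 and MYB15 rose, beside 18.7% of all genes called higher, and none fell by edgeR, DESeq2 or limma-voom, also at an unadjusted p under 0.05 in edgeR, beside 21.8% called lower. Against Noble E-L 35, libraries labelled Noble had 1 copy higher (VIT_16s0100g00750, 1.62 ± 0.53, adjusted p = 0.028) and 1 lower (VIT_16s0100g00910), beside 15.3% and 17.3% of all genes. The count of 2 became 1 without Noble E-L 35 replicate 3 or E-L 38 replicate 2 labelled Noble. The call of VIT_16s0100g00750 ended without Noble E-L 35 replicate 2 (1.36) or 3 (1.66) and without E-L 38 replicate 2 labelled Noble (1.26), with adjusted p up to 0.12. The test of the difference of these steps called 8 of 32 lower in Noble minus Carlos and none higher, beside 16.5% and 16.9% of all genes. At an unadjusted p under 0.05, and by DESeq2 and limma-voom, none was higher either. The count was 17 without Carlos E-L 35 replicate 3, 13 without Noble E-L 35 replicate 2, 5 without E-L 38 replicate 3 labelled Carlos and 19 without the 3 libraries that stood apart.

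VIT_16s0100g01120 was one of those 8. It had 2.30, 3.49 and 2.46 TPM in libraries labelled Noble, against 4.0, 1.88 and 4.83 TPM in Noble E-L 35, and 4.85, 5.52 and 11.05 TPM in libraries labelled Carlos, against 1.74, 1.23 and 2.71 TPM in Carlos E-L 35. Only the libraries labelled Carlos lay above their stage before. The steps differed by -2.14 ± 0.61 (adjusted p = 0.014), in all 20 alternatives, and by -2.83 without the 3 libraries that stood apart.

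VIT_16s0100g00910 and VIT_16s0100g00860 were low copies with few or no counts in some groups. Their counts were not whole in 10 of 12 and in 8 of 11 libraries with a count. Their levels, zeros included, thus rest on how reads were divided among copies. In CPM, VIT_16s0100g00910 had 0 in all 3 libraries labelled Noble at E-L 38, against 0.45, 0.20 and 0.64 in Noble E-L 35. It was thus at least 9.63-fold lower, taking 3 counts over the group's libraries as the floor. In libraries labelled Carlos it had a mean of 1.25 CPM, against 1 count over the 3 Carlos libraries of E-L 35, a ratio of 86.7 (exact Poisson 95% interval 15.6 to 3425). That 1 count was rounded from expected counts of 0.44, 0 and 1.19. Between labels at E-L 38 VIT_16s0100g00910 was at least 28.1-fold lower in libraries labelled Noble, while at E-L 35 it was higher in Noble (ratio 29.8, 5.35 to 1176). VIT_16s0100g00860 had no count in Carlos E-L 35 and 0.69, 0.76 and 2.90 CPM in libraries labelled Carlos at E-L 38, at least 33.6-fold higher in the mean, or at least 16.8-fold higher without replicate 3 labelled Carlos. In every other library it had at most 0.34 CPM. It passed the filter on low counts through the group labelled Carlos at E-L 38, so its calls against that group are not independent of the filter. The 2 copies went the same way with the label at E-L 38. These intervals and floors cover counting error only, not the division of reads among copies.

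Between cultivars at E-L 32, 4 of the 32 tested genes were higher in Noble and 4 lower (12.5% each), beside 13.8% and 13.6% of all genes, so these shares were near those of all genes. The 8 calls became 4 without Carlos E-L 32 replicate 3 and with limma-voom, and 5 without any other single library of that stage. VIT_16s0100g01030 had 0.57, 0.16 and 0.58 TPM in Noble, against 1.13, 1.55 and 0.97 TPM in Carlos, a log2 fold change of -1.60 ± 0.49 (adjusted p = 0.025). Its call ended without Noble E-L 32 replicate 2 (-1.19), without Carlos E-L 32 replicate 2 (-1.38) and with limma-voom (-1.74), with adjusted p up to 0.098. The groups did not overlap.

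At E-L 35, 3 of 32 genes were higher in Noble and none lower, beside 9.75% and 9.25% of all genes; they were MYB15, VIT_16s0100g00910 and VIT_10s0042g00840. For lower levels in Noble the count at an unadjusted p under 0.05 and by DESeq2 and limma-voom was also 0. The 3 calls were 6 without Carlos E-L 35 replicate 3, 1 without Carlos E-L 35 replicate 1 or 2, 7 without the 3 libraries that stood apart, and 0 with only those groups in the fit. At E-L 38, 7 of 32 were lower in libraries labelled Noble, beside 12.0% of all genes, and none was higher by edgeR, also at an unadjusted p under 0.05, by DESeq2 or by limma-voom, beside 11.4%. The 7 were 3 without E-L 38 replicate 1 labelled Noble, 2 without replicate 3 labelled Noble, 2 without replicate 3 labelled Carlos and 13 without the 3 libraries that stood apart.

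The chromosome 10 cluster was low, and its untested sums ran differently in Noble and Carlos, as labelled. Of its 10 copies, 3 are models with an effective length under 100 bases, for which 1 or 2 counts give a high TPM. VIT_10s0042g00860 reached 29.88 TPM in this way, although it had a count in 5 of 18 libraries only. Without the 3, the cluster held 0.78, 1.47 and 1.93 TPM in Noble at E-L 32, 5.37, 1.45 and 3.01 TPM at E-L 35, and 1.17, 1.16 and 1.36 TPM in libraries labelled Noble at E-L 38. In Carlos it held 4.21, 5.10 and 3.03 TPM at E-L 32, 0.57, 0.57 and 1.57 TPM at E-L 35, and 5.26, 5.26 and 5.14 TPM in libraries labelled Carlos at E-L 38. As labelled, veraison was the low stage in Carlos, with no overlap with the other stages. The Carlos libraries of E-L 35 did overlap those labelled Noble at E-L 38 (1.16 to 1.36 TPM). The rise after veraison in Carlos thus depends on the labels. The Noble libraries of E-L 35 overlapped those of E-L 32 and lay above those labelled Noble at E-L 38.

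One copy, VIT_10s0042g00840, held 45.7% to 84.1% of that sum. It had 4.76, 0.91 and 2.29 TPM in Noble at E-L 35, against 0.37, 0.33 and 1.11 TPM in Carlos at E-L 35, and 0.94, 0.85 and 0.86 TPM in libraries labelled Noble, against 4.35, 4.23 and 4.59 TPM in libraries labelled Carlos at E-L 38. The cultivars overlapped at E-L 35 and the labels did not at E-L 38, and the late step differed between labels by -4.29 ± 0.85 (Noble minus Carlos, adjusted p = 0.0014), in all 20 alternatives. The difference was -3.58 without Noble E-L 35 replicate 1, -5.03 without Carlos E-L 35 replicate 3 and -5.48 without the 3 libraries that stood apart. From Carlos E-L 35 to libraries labelled Carlos it rose by 2.89 ± 0.61 (adjusted p = 0.0020), or 3.65 without Carlos E-L 35 replicate 3 and 3.66 without the 3 libraries. At E-L 38 it was lower in libraries labelled Noble, its log2 fold change being -2.34 ± 0.59 (adjusted p = 0.010), in all 14 alternatives.

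Among the libraries of E-L 35 the balance between copies of chromosome 16 differed within cultivars. The 2 copies named here were chosen after their values were seen, so the comparison is a description. VIT_16s0100g01100 had 5.02 TPM in Noble replicate 2 and 6.55 and 4.31 TPM in Carlos replicates 1 and 2, against 1.38 and 2.10 TPM in Noble replicates 1 and 3 and 1.18 TPM in Carlos replicate 3. VIT_16s0100g00900 ran the other way, as its values above show. The TPM of VIT_16s0100g01100 was 6.52, 8.29 and 8.45 times that of VIT_16s0100g00900 in Noble replicate 2 and Carlos replicates 1 and 2, and 0.52, 0.88 and 0.54 times in Noble replicates 1 and 3 and Carlos replicate 3. In the 12 libraries of the other stages this ratio lay between 0.19 and 1.72. The libraries of both cultivars thus fell on both sides, and Noble replicate 2 and Carlos replicate 3 are those that stood apart over all genes at this stage.

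Of the 36 identifiers beside the clusters, 23 were tested. From E-L 32 to E-L 35 8 of these rose and 10 fell, beside 30.6% and 32.1% of all genes, with a median log2 fold change of -0.24. From E-L 35 to E-L 38, over both labels, 5 rose and 5 fell, beside 16.9% and 21.2% of all genes, with a median of -0.095. They were not tested against the copies of the clusters.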

How the data were processed

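The authors deposited 1 table per library with an expected count, TPM and FPKM for each identifier, with a length and an effective length beside them, per the file headers. In the deposited expected counts, reads that match several genes are divided among those. The TPM and FPKM deposited by the authors are scaled by effective length and library total. The tools named are RSEM 1.3.3 and STAR 2.7.6a, per the submitters' processing notes. The genome build, the annotation, the use of strand in counting and the match of each cultivar's reads to the reference are all not given in the sources named here. A RefSeq table of the assembly VITMroCarlos_v1.3 held none of the identifiers, so no sequence and no gene name was drawn from it.

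Expected counts were rounded and tested with edgeR 4.0.16 in R 4.3.3 (filterByExpr, TMM, quasi-likelihood F test, 1 coefficient per group over 18 libraries, Benjamini-Hochberg adjustment, called at an adjusted p under 0.05). The SE is the log2 fold change divided by the square root of F. TPM was summed per cluster without a test. The named genes are both MYB genes, the 5 copies of chromosome 16 and 2 of chromosome 10 with the highest mean TPM, and in each comparison the 2 highest and 2 lowest called genes among those averaging 1 CPM or more in a group compared, 16 in all. Members, lists and rules were chosen with earlier results of these data known. The planned check of cultivar labels, which asked for at least 5 CPM in 6 libraries of 1 cultivar and under 0.5 CPM in 6 of the other, found 1 identifier, which ran against its label. The check by calls and the sums without short models were added after the data were seen. Alternatives were RLE and upper-quartile scaling, no filter, DESeq2 1.42.0, limma-voom (limma 3.58.1), a replicate block, only the groups compared, and libraries left out. The fit was tested on simulated data. Replicates of a group differed by at least 2.95 in chi-square per degree of freedom, so none was a copy of another. This value cannot tell technical repeats from separate berry samples.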

Additional observations from a re-analysis of the deposited data

Results flagged for a closer look

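These results differed between the cultivars, as labelled, by the edgeR test of the difference of the stage steps itself (Noble minus Carlos, on the log2 scale). Values are given for the genes named by rule, which are 4 of the 6 called at the early step and 5 of the 8 called at the late step. At the early step, to E-L 35, they were MYB14 (-1.83), VIT_10s0042g00840 (2.81), VIT_16s0100g00800 (2.34) and VIT_16s0100g01030 (2.09). The call of VIT_10s0042g00840 (adjusted p = 0.035) held in 9 of 20 alternatives, with differences between 2.12 and 3.71 and adjusted p up to 0.11. It was 2.12 without Noble E-L 35 replicate 1 and 3.56 without Carlos E-L 35 replicate 3. At the late step, to E-L 38, they were MYB15 (-2.21), VIT_10s0042g00840 (-4.29), VIT_16s0100g01120 (-2.14), VIT_16s0100g00860 (-9.02) and VIT_16s0100g00910 (-12.4). The values of VIT_16s0100g00860 and VIT_16s0100g00910 depend on the prior count, since a group stands at 0, and are no bounds. They lay between -9.91 and -5.78 and between -14.7 and -9.40 over the alternatives. VIT_16s0100g00860 also passed the filter on low counts only through the libraries labelled Carlos at E-L 38, where it was high. A label exchange at E-L 38 and a difference between cultivars cannot be told apart in these late steps.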

How the results depend on the processing

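Of 88 alternative counts of genes called in a comparison, leaving aside single libraries, 80 lay within 1.5 times the reported count. The others were 11 in place of 17 (Noble E-L 35 against E-L 32, only those groups in the fit), 4 in place of 8 (Noble against Carlos at E-L 32, limma-voom), 7 without the 3 libraries that stood apart and 0 with only those groups in place of 3 (E-L 35), 13 in place of 7 (E-L 38, without the 3), 3 with limma-voom and 1 with only those groups in place of 6 (difference of the early steps), and 19 in place of 8 (difference of the late steps, without the 3). With 1 library left out, counts ranged from 11 to 20 for E-L 38 against E-L 35 over both labels, 9 to 16 for Noble E-L 35 against E-L 32, 1 to 2 for Noble E-L 38 against E-L 35, 4 to 5, 1 to 6 and 2 to 9 for Noble against Carlos at the 3 stages in order, 0 to 9 for the early and 5 to 17 for the late difference. Similar counts could hold other genes. Without the 3 libraries the early difference again had 6 calls, of which 3 were among the 6 reported. With only those groups in the fit, Noble against Carlos at E-L 32 had 11 calls, sharing 5 of the 8 reported. Ratios of the chromosome 16 sum by CPM were 3.20 in Noble and 1.91 in Carlos for E-L 35 against E-L 32. That of the chromosome 10 sum with short models ranged from 0.107 to 0.439 in Carlos. Over the 16 named genes less 1 that was not tested, 26 of 165 log2 fold changes took the other sign under some alternative, none of them a called one. In the averaged early step these were, among others, VIT_16s0100g00800 (-0.038 to 0.63) and VIT_10s0042g00840 (-0.22 to 0.43). Directions also turned for MYB14 between E-L 35 and E-L 38 in Carlos (-0.046 to 0.45 with 1 library left out, negative without E-L 38 replicate 1 labelled Carlos) and for MYB15 in the difference of the early steps (0.78 without the 3 libraries, and -1.42 to 0.40 with 1 library left out, positive without Noble E-L 32 replicate 1). Upper-quartile scaling moved the median of all genes to -0.11 in Noble and to -0.12 in the early difference. Replicate numbers did not pair the samples: correlations of deviations ran from -0.29 to 0.37, with 8 of 45 above 0.1. With the replicate block 14 and 16 genes were called in the averaged early and late steps, against 15 and 17. No copy of chromosome 16 with a count had whole counts throughout, so the sum over whole counts gave no value. The causes were not tested.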
